A study of Saccharomyces cerevisiae with 6 samples.

Results

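The 10 genes described here encode enzymes, permeases and activators with which *S. cerevisiae* uses proline, γ-aminobutyric acid (GABA) and arginine as nitrogen sources. For arginine they include only the enzyme genes *CAR1* and *CAR2*. The 10 genes were taken by systematic name as *PUT1* to *PUT4*, *UGA1* to *UGA4*, *CAR1* and *CAR2*. They are 10 of the 5657 genes in the deposited table. The rule for taking them used names only, but the list was chosen with earlier results of these data known. Total RNA came from cells of strain F12, an industrial yeast engineered for ethanol production from lignocellulose, after 4 h of fermentation. The medium held ammonium sulfate (7.5 g/L) as nitrogen source beside glucose (20 g/L), either with 40% (w/w) insoluble solids (IS, glass beads that stand in for plant fibre) or with 0% IS. Affymetrix yeast arrays were hybridized with RNA of 3 replicates for 40% IS and 3 for 0% IS, and whether each replicate came from its own culture is not stated in the sources used here.

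Yeast breaks down proline in the mitochondrion, where a pair of enzymes turns it into glutamate. GABA gives up its amino group in a transamination, and its carbon enters the citric acid cycle as succinate. Arginine is split into urea and ornithine, and ornithine feeds into the proline route. Genes of these routes are known to respond to their substrates through dedicated activators and to be held down by preferred nitrogen sources such as ammonium, a control known as nitrogen catabolite repression.

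The value used here was the mean log2 signal of each probe set. A probe set is a group of short oligonucleotides that reads a gene, and some kinds can be shared by several genes. The authors' column of mean signals names no sample or group, and it was read here as the mean over the arrays of both conditions. On that reading a single value stood for the 40% IS and 0% IS cultures together. It carried neither a spread between replicates nor a difference between conditions. The authors' own comparison of the conditions was not used, so whether any of the 10 genes was higher or lower with 40% IS was not analysed here. The mean log2 signals of all 5705 probe sets ran from 6.20 to 14.14, with a lower quartile of 8.03, a median of 8.79 and an upper quartile of 9.74. Probe sets differ in how strongly they bind, so these signals show how bright each probe set was and do not order the genes by transcript number.

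All 10 genes had 1 probe set each, and 0 of these were of a kind that several genes can share. In the RefSeq annotation 0 pairs of the 10 genes were direct neighbours on a chromosome. The signals of 4 of the 10 lay below the lower quartile of the table, referred to here as the dim range. By definition a share of 0.25 of all probe sets lies in that range. Whether the count among the 10 differs from that share was not tested.

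The enzymes of the proline route had signals on both sides of that quartile. *PUT1* (YLR142W), which encodes the mitochondrial proline oxidase that opens the route, had a mean log2 signal of 7.70, in the dim range. *PUT2* (YHR037W), which encodes the dehydrogenase that completes the conversion to glutamate, had a mean log2 signal of 10.03, above the upper quartile of the table. *PUT4* (YOR348C) encodes the proline permease of the plasma membrane, and its mean log2 signal of 7.81 was again in the dim range. *PUT3* (YKL015W) encodes the zinc cluster activator of *PUT1* and *PUT2* and had a mean log2 signal of 7.84. Of the 4 *PUT* probe sets, 3 were thus below the lower quartile, which was not tested as a trait of the family.

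In the GABA route, *UGA1* (YGR019W) encodes the GABA transaminase and had a mean log2 signal of 10.14, above the upper quartile. *UGA2* (YBR006W), which encodes succinate semialdehyde dehydrogenase, had a mean log2 signal of 8.31, between the lower quartile and the median. *UGA3* (YDL170W), the zinc cluster activator of the *UGA* genes, had a mean log2 signal of 8.96, above the median. The GABA permease gene *UGA4* (YDL210W) had a mean log2 signal of 6.89 and was the 1 *UGA* probe set of 4 in the dim range.

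Both arginine genes lay between the quartiles. *CAR1* (YPL111W), which encodes the arginase that releases urea and ornithine, had a mean log2 signal of 8.75. *CAR2* (YLR438W), which encodes the ornithine transaminase acting on its product, had a mean log2 signal of 8.43.

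Other genes of the same nitrogen network were listed for context, among them the GATA factors of nitrogen catabolite repression, the general amino acid and arginine permeases and the regulators of arginine metabolism. All 15 had a probe set, and their mean log2 signals ran from 7.24 to 12.17. Below the lower quartile were 2 of the 15, *ARG81* (YML099C, 7.61) and *ARG82* (YDR173C, 7.24), both needed for the control of arginine genes by arginine.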

How the data were processed

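Per the labels and the methods of the study, the authors normalized the Affymetrix yeast arrays by RMA, using Expression Console, and ran limma on the result. The versions used are not given in the sources used here. The deposited table has 5705 rows, 1 per probe set. The authors' deposited log2 values used here are mean RMA signals, in a column (AveExpr) that names no sample or group. They were read as means over the arrays of both conditions, and values per array were not analysed here. Another 5 columns hold the authors' own comparison of the conditions (log2 differences, a moderated t, p-values, adjusted p-values and a log-odds value). These were not used and 3 columns were empty. The tests planned on values per array were therefore not run, and no difference between the conditions was computed.

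Symbols were those given with the lists of genes. Systematic names were looked up in RefSeq (assembly R64), which held all 10 genes and the names of 5692 rows. Because the build behind the arrays is not given in the sources used here, no coordinates are printed. The planned search for motifs in promoters was not run, since no sequences were used here. The genes named are the 10 given by systematic name, and the other 15 were fixed as a list. Of these, *ARG80*, *ARG81* and *ARG82* were named after their values were seen. The members and lists were chosen with earlier results of these data known. The dim range is everything below the quantile 0.25 of all mean signals. The number of arrays limits the precision, and no error was computed for a mean. Python 3.11.15, pandas 2.3.3 and numpy 2.4.6 were used.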

Additional observations from a re-analysis of the deposited data

How the results depend on the processing

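The median of the 10 mean log2 signals was 8.37 with every row and also with the brightest row per gene, since each gene has 1. With the quartile taken over the rows named in RefSeq, 4 of the 10 again lay in the dim range. RefSeq named 5692 of the 5705 rows, so this setting could hardly move the quartile and is a weak check. No paired analysis was possible because the values used are averaged over both conditions. For the same reason refits on values per array (other variance models, quantile normalization, a filter on dim probe sets, each replicate left out in turn) were not run. The promoter windows were not run for want of sequences. How far the dim probe sets of *PUT1*, *PUT3*, *PUT4* and *UGA4* stood above background was not tested.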
